A study of Mus musculus with 12 samples.

Results

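The mast cell genes described here are 10 genes of proteases, receptors and granule enzymes: Mcpt1, Mcpt2, Mcpt4, Mcpt9, Cma1, Cpa3, Tpsb2, Tpsab1, Kit and Fcer1a. Each was taken from the probe set matched to that symbol alone, the one with the highest mean over the arrays where a gene had several. In this way 9 of the 10 were measured, among 19938 genes tested in all. Mcpt9 was matched by 2 probe sets that the annotation shares with Cma2, so it has no value. The group was chosen by the measured difference of Mcpt1 and Mcpt2 between KO arrays labelled tumor and adjacent, so that difference is described here without a test.

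The series measured RNA by expression array in intestinal epithelium that was laser-microdissected, either from tumors or from beside them. All mice were males of 25 weeks on a C57BL6/J APCmin/+ background, so both genotypes carried 1 inactive copy of Apc and formed intestinal adenomas. KO stands for FSPCre-PPARB -/-, in which Cre under the promoter of fibroblast-specific protein removes PPAR-beta/delta, and floxed for PPARB flox/flox littermates. The fibroblast-specific protein gene, S100a4, is also active in some leukocytes, so Cre need not act in fibroblasts alone. There were 3 KO and 3 floxed arrays of tumor epithelium, 2 KO and 2 floxed arrays of adjacent epithelium, and 2 adjacent arrays whose title and genotype characteristic name opposite genotypes. The last 2 are called conflict arrays here. The title of conflict array 1 says KO and its characteristic floxed, while conflict array 2 has them the other way round. No label ties an array to an animal, so p-values measure the spread between these arrays, which may be technical or hold arrays of the same mouse.

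Mast cells are granulated leukocytes that release proteases, histamine and lipid mediators, classically when antigen binds IgE on their high-affinity receptor. In mice, mucosal mast cells lie in and under the gut epithelium and store the chymases Mcpt1 and Mcpt2, whereas connective tissue mast cells store the chymases Mcpt4 and Cma1, the tryptases Tpsb2 and Tpsab1 and carboxypeptidase Cpa3. Both types need Kit, the receptor of stem cell factor, to survive. The chymases lie side by side on chromosome 14, with the granzymes of lymphocytes behind them.

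The start regions of Mcpt1, Mcpt4 and Cma1 are printed because these chymases of 1 locus, 1 of mucosal and 2 of connective tissue type, differed unequally between the KO groups, as the values below show. Of the 10 genes, 7 matched the RefSeq promoter table (GRCm38.p6), which gives 250 bases before and 50 after each gene's start. Mcpt2, Tpsb2 and Tpsab1 had no entry. Capitals mark GATAAG, a form of the motif bound by GATA factors, and TATAAA, the TATA box, searched on both strands.
Mcpt1 (chr14:56017714-56018013, plus strand): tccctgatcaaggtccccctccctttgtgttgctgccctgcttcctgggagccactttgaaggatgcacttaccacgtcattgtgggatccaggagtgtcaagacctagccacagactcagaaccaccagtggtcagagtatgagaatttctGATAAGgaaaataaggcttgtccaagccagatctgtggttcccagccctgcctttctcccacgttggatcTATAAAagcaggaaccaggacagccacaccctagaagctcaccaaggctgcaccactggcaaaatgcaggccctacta
Mcpt4 (chr14:56062261-56062560, minus strand): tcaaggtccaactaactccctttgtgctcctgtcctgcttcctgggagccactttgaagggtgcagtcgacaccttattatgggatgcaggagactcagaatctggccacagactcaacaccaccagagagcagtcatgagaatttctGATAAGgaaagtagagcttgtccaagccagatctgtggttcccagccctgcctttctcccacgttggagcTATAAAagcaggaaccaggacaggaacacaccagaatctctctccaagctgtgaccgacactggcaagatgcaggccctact
Cma1 (chr14:55944626-55944925, minus strand): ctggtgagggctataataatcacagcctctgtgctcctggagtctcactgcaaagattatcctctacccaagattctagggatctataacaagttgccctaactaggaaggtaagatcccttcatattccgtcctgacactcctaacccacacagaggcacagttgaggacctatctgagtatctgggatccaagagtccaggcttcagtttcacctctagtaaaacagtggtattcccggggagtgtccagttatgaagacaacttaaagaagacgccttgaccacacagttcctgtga
The windows of Mcpt1 and Mcpt4 each hold 1 GATAAG, which begins at -98 and -102 from the start, and 1 TATAAA, which begins at -28 and -32. That of Cma1 holds neither. Of 27025 promoters of this length, 7.43% hold GATAAG and 14.2% hold TATAAA. In a global alignment, Mcpt1 and Mcpt4 were identical at 249 of 291 aligned bases (85.6%) with a shared unbroken run of 53 bases. Mcpt1 and Cma1 were identical at 156 of 253 aligned bases, with a longest shared run of 10. A match is a description of these letters and not a site of binding.

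The arrays differed in signal. Both floxed adjacent arrays and floxed tumor arrays 1 and 2 had a median correlation with the other arrays of 0.507 to 0.611 over all probe sets, against 0.818 to 0.852 for the other 8, and are called weak-signal arrays. Every floxed adjacent array was therefore of weak signal. Intestinal epithelial markers such as Krt8, Krt20 and Lgals4 averaged 6.33 to 8.07 (log2, mean of 10 genes) in the 8 other arrays and 5.05 to 6.02 in the weak-signal arrays. Ppard, the gene that encodes PPAR-beta/delta, lay at 5.51 to 6.50 in the 5 KO arrays and 4.48 to 5.79 in the 5 floxed arrays. As Cre acts outside epithelium, this does not check the genotype labels. A mark for low signal is the median of unnamed probe sets, 3.85 to 3.94 in those 8 arrays and 4.24 to 4.39 in the weak-signal arrays. It only marks low signal, since levels of different probe sets cannot be compared as amounts.

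The mucosal chymases Mcpt1 and Mcpt2 were high in both KO arrays of adjacent epithelium and in no other array. Mcpt1, a chymase released by mucosal mast cells into gut and blood, was measured at 6.27 and 5.93 (log2) in KO adjacent arrays 1 and 2. It was 3.12, 3.44 and 2.82 in KO tumor arrays 1 to 3. In floxed tumor arrays 1 to 3 it was 4.34, 5.01 and 3.22, and in floxed adjacent arrays 1 and 2 it was 4.06 and 3.08. Both KO adjacent arrays thus stood above the remaining 10, where the highest was floxed tumor array 2, a weak-signal array. Conflict arrays 1 and 2 held 3.68 and 2.91, within the range of the other groups. The KO tumor group lay 2.97 lower than the KO adjacent group, with means of 3.13 ± 0.31 (SD, n = 3) and 6.10 ± 0.24 (SD, n = 2). The KO tumor values lie below 3.92, the lowest median of unnamed probe sets on these arrays, so the size of the difference is uncertain.

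Mcpt2, a chymase-like protease of the same granules, was measured at 7.24 and 7.03 in KO adjacent arrays 1 and 2. It was 3.80, 4.15 and 3.85 in KO tumor arrays 1 to 3. The floxed tumor arrays held 4.58, 3.82 and 2.84, and the floxed adjacent arrays 4.38 and 5.04. Conflict arrays 1 and 2 held 4.44 and 3.77. Again both KO adjacent arrays exceeded all 10 others, by at least 1.99, against 0.92 for Mcpt1. The KO tumor group lay 3.20 lower than the KO adjacent group, with means of 3.94 ± 0.19 (SD, n = 3) and 7.14 ± 0.15 (SD, n = 2). The KO tumor values lie near the medians of unnamed probe sets on these arrays, 3.92 to 3.93, so this size is uncertain too. Over all genes, 594 of 19938 (2.98%) had both KO adjacent arrays above every other array, 14 of them (0.0702%) by more than 1 log2 unit. Fewer mast cells and less RNA per cell cannot be told apart in such bulk tissue, here or in any value that follows.

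**Figure D1:**
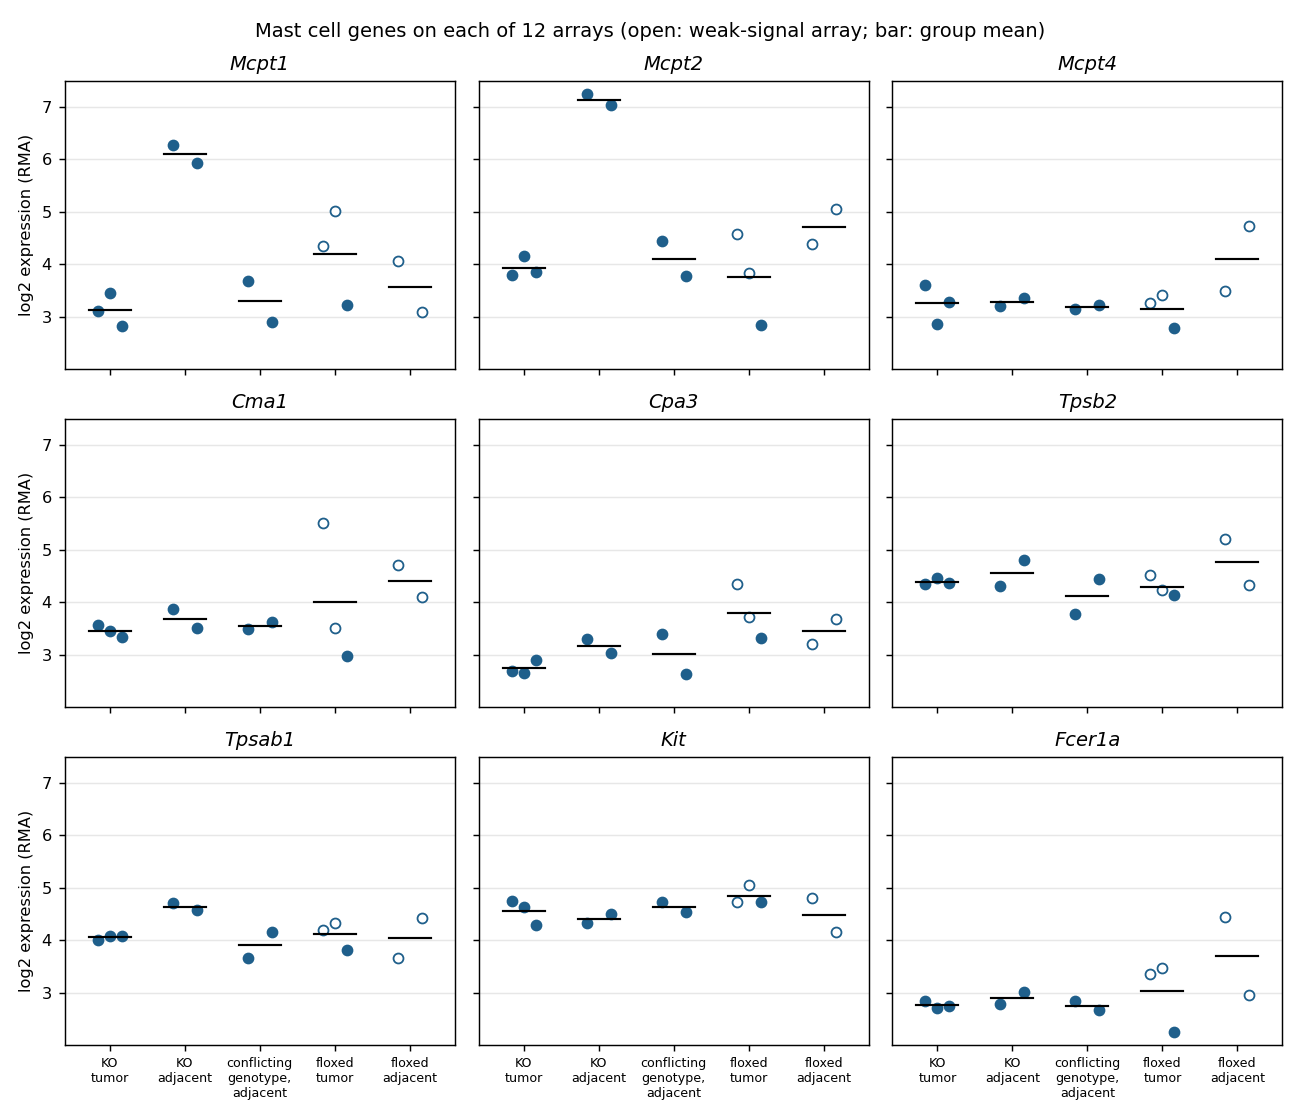
Log2 expression (RMA, y axis) of the 9 measured mast cell genes in each of 12 arrays, by group (x axis). Points are arrays, open where the signal is weak, and bars are group means. Mcpt1 and Mcpt2 sit at 5.93 to 7.24 in the KO adjacent arrays and at 2.82 to 5.04 in all others. Of the other genes only Tpsab1 has both KO adjacent arrays above all others, by at least 0.14.

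By group mean Mcpt1 ran from KO adjacent (6.10) through floxed tumor (4.19 ± 0.90, SD, n = 3) and floxed adjacent (3.57 ± 0.69, SD, n = 2) to KO tumor (3.13). The arrays of floxed tumor overlap those of floxed adjacent, and those of floxed adjacent overlap those of KO tumor. Only the first step in this order leaves the groups apart, and it holds the KO adjacent arrays that chose the gene. Mcpt2 ran from KO adjacent (7.14) through floxed adjacent (4.71 ± 0.47, SD, n = 2) and KO tumor (3.94) to floxed tumor (3.75 ± 0.87, SD, n = 3). Here the step from floxed adjacent to KO tumor leaves the groups apart, though both floxed adjacent arrays are of weak signal, and KO tumor and floxed tumor overlap. The correlation of Mcpt1 with Mcpt2 was r = 0.80 over 12 arrays and r = 0.96 over the 8 arrays not of weak signal. Over the 7 floxed and conflict arrays, which include all 4 weak-signal arrays, it was r = 0.09. The first pair of values is set by the arrays that chose the genes.

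The genotype of the conflict arrays bears on the step itself. Under either reading of the labels 1 of them is another KO adjacent array, and both held Mcpt1 and Mcpt2 at the level of the other groups. Read by title, conflict array 1 joined the KO adjacent group, and the KO difference of tumor minus adjacent became -2.17 for Mcpt1 and -2.30 for Mcpt2. Read by characteristic, conflict array 2 joined it, and the differences became -1.91 and -2.08. The high levels of both chymases therefore rest on 2 of what would be 3 KO adjacent arrays.

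Of the other chymases of the locus, Mcpt4 and Cma1 were measured, Cma2 and Mcpt9 were not. Mcpt4, the main chymase of connective tissue mast cells, was 3.19 and 3.35 in KO adjacent arrays 1 and 2. It was 3.60, 2.86 and 3.29 in KO tumor arrays 1 to 3, and 3.15 and 3.22 in the conflict arrays. The KO groups overlap and differ by 0.02, with every KO value under the median of unnamed probe sets, where a change could be missed. Whether the likeness of its start region to that of Mcpt1 bears on its level was not tested. The highest Mcpt4 value, 4.73, came from floxed adjacent array 2, of weak signal, and the other floxed arrays held 2.78 to 3.49. Cma1, the other connective tissue chymase, was 3.86 and 3.50 in KO adjacent arrays and 3.57, 3.45 and 3.33 in KO tumor arrays. These values too lie under the median of unnamed probe sets. Cma1 reached 5.52 in floxed tumor array 1, while floxed tumor arrays 2 and 3 held 3.50 and 2.98.

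In RefSeq's order of chromosome 14, 15 protein-coding genes run from Cma1 to the granzyme Gzmb, and 13 of them were measured. Mcpt1 and Mcpt2 are direct neighbours there. In the KO arrays the adjacent group exceeded the tumor group by 2.97 and 3.20 in these 2, and differed by -0.61 to 0.24 in the other 11. Among those, Mcpt8, a protease of basophils, differed by 0.0024 and Ctsg, cathepsin G of neutrophils and connective tissue mast cells, by -0.15. Gzmb, granzyme B of cytotoxic lymphocytes, differed by -0.61. Except in Gzme and Gzmb, both KO means of these 11 genes lay under the median of unnamed probe sets, where a change could be missed. The proteases form a family of similar sequences, so probes of Mcpt1 and Mcpt2 may share signal, and their 2 values are uncertain as separate measurements.

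**Figure D2:**
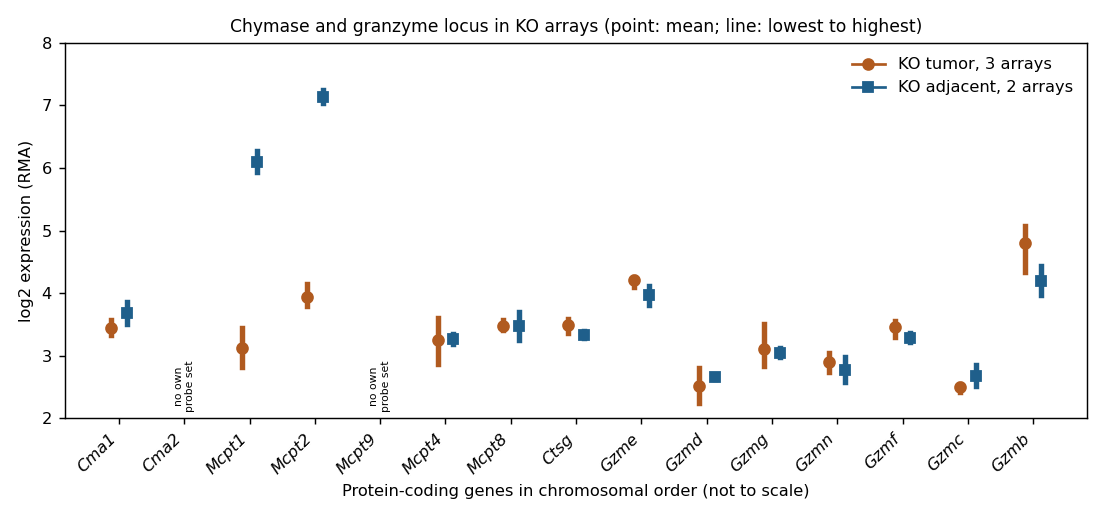
Log2 expression (RMA, y axis) of protein-coding genes from Cma1 to Gzmb in chromosomal order (x axis, not to scale) in KO tumor (circles, 3 arrays) and KO adjacent (squares, 2 arrays) epithelium. Symbols are means and lines run from the lowest to the highest array. Mcpt1 and Mcpt2 separate by 2.97 and 3.20, and the other 11 measured genes by at most 0.61. Of those 11, all but Gzme and Gzmb have both means at low signal.

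Among the remaining proteases, Cpa3, carboxypeptidase A of mast cell granules, was 3.31 and 3.04 in KO adjacent arrays and 2.69, 2.64 and 2.89 in KO tumor arrays. The KO groups do not overlap, but all 5 values lie under the median of unnamed probe sets. Floxed tumor arrays held Cpa3 at 4.34, 3.72 and 3.32, above every KO tumor array, and floxed adjacent arrays at 3.20 and 3.68. Tpsab1 is a tryptase that RefSeq lists as a transcribed pseudogene in this strain's genome. It was 4.71 and 4.57 in KO adjacent arrays, above the 3.66 to 4.43 of all 10 others and above the 4.00 to 4.08 of KO tumor arrays. Tpsb2, the tryptase made in connective tissue mast cells, was 4.31 and 4.80 in KO adjacent arrays, which overlap the 4.34 to 4.46 of KO tumor arrays. In conflict arrays 1 and 2 it was 3.78 and 4.45.

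The receptors gave no separation by tissue in the KO arrays. Kit was 4.33 and 4.49 in KO adjacent arrays and 4.74, 4.63 and 4.29 in KO tumor arrays. It had the narrowest range of the 9 genes, 0.89 over 12 arrays, and is also made by the interstitial cells of Cajal, the pacemakers of gut muscle. Fcer1a, the IgE-binding chain of the high-affinity receptor, was 2.79 and 3.02 in KO adjacent arrays and 2.85, 2.70 and 2.74 in KO tumor arrays, all under the median of unnamed probe sets. Ms4a2, the beta chain of that receptor, named after its values were seen, lay at 3.07 and 2.93 in KO adjacent arrays and 2.97 to 3.30 in KO tumor arrays. Of the 9 genes, 4 had non-overlapping KO groups, all higher in adjacent epithelium (Mcpt1, Mcpt2, Cpa3 and Tpsab1), where 32.1% of all genes tested did not overlap and 14.1% did so in that direction. By limma, 0.0201% of all genes (4) passed in this contrast, each lower in tumor. This contrast chose the genes and nothing is read from that count. Thus the name of mucosal mast cell genes rests on Mcpt1 and Mcpt2, the 2 that chose the group. In the KO adjacent arrays Tpsab1, Tpsb2 and Kit also lay above the median of unnamed probe sets. Mcpt4, Cma1, Cpa3, Fcer1a and Ms4a2 lay under it there.

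Tumor against adjacent epithelium in floxed mice asks whether the tissues differ where PPAR-beta/delta is intact. Its differences use none of the arrays that chose the genes, but the spread in the 4-group fit is pooled with those KO arrays. Of 9 genes, 0 passed the test (limma adjusted p under 0.05, Benjamini-Hochberg over all genes; 1 at an unadjusted p under 0.05), where 0.00502% of all genes did, 1 gene. Mcpt1 in tumor minus adjacent was 0.62 ± 0.48 (log2, SE, n = 3 and 2; limma adjusted p = 0.627, 95% interval -0.44 to 1.68). Mcpt2 was -0.96 ± 0.44 (limma adjusted p = 0.401, interval -1.92 to 0.00250). Fitted on the 5 floxed arrays alone, the SE rose to 0.58 for Mcpt1 and 0.55 for Mcpt2, and the limma adjusted p was 0.9998 for both. The 2 chymases had opposite signs, and the arrays of the groups overlap for both. Whether these differ from the KO difference was not tested, since the KO arrays chose the genes, and 4 of the 5 floxed arrays are of weak signal. Mcpt4 was -0.96 ± 0.38 (adjusted p = 0.352), the only member whose floxed groups do not overlap, where 18.8% of all genes did not, 8.64% higher and 10.1% lower in tumor. The other 6 lay between -0.67 (Fcer1a) and 0.36 (Kit).

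KO against floxed tumor epithelium, the comparison the series title names, holds KO arrays that chose Mcpt1 and Mcpt2, so those 2 are given as values. Mcpt1 was 3.13 in KO and 4.19 in floxed tumor, a difference of -1.06. Mcpt2 was 3.94 and 3.75, a difference of 0.19. The groups overlap for both genes. Against floxed tumor array 3 alone, the floxed tumor array not of weak signal, the differences were -0.10 for Mcpt1 and 1.09 for Mcpt2. Of the 7 other genes 0 passed (limma; 1 at unadjusted p below 0.05), where 1.08% of all genes did, 215. Of these 136 (0.682%) were higher and 79 (0.396%) lower in KO. The median of these 7 was -0.26 and that of all genes -0.01. With the replicate number as a block, 782 genes passed and again none of the 7.

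The gene nearest the threshold was Cpa3, at -1.05 ± 0.29 in KO minus floxed (SE, n = 3 and 3; limma adjusted p = 0.0879, 95% interval -1.69 to -0.42), with all 3 KO arrays under all 3 floxed arrays. In all, 27% of genes tested had groups that did not overlap, 13.2% higher and 13.9% lower in KO. When floxed tumor array 3 was left out Cpa3 passed at -1.29 (limma adjusted p = 0.0059). It also passed at -1.31 in the array-weighted fit (limma adjusted p = 0.0139). Both settings lean on floxed tumor arrays 1 and 2, of weak signal, and against floxed tumor array 3 alone the difference was -0.58. Cpa3 lay under the array's median of unnamed probe sets in every KO tumor array and in floxed tumor arrays 2 and 3. The size of its difference is therefore uncertain. Over all 15 alternatives its adjusted p ran from 0.0059 to 0.346. Kit differed by -0.29 (interval -0.84 to 0.27), Tpsb2 by 0.09 (-0.52 to 0.70) and Tpsab1 by -0.06 (-0.63 to 0.51). Such intervals do not show that these genes were alike in both genotypes.

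In adjacent epithelium KO against floxed set 2 arrays against 2 of weak signal. Mcpt1 was 6.10 in KO and 3.57 in floxed, a difference of 2.53, and Mcpt2 was 7.14 and 4.71, a difference of 2.43. These differences contain the KO adjacent arrays that chose both genes and share them with the KO tissue contrast, so they are no separate support and were not tested. They became 1.94 and 1.84 with the conflict labels read by title and 1.43 and 1.39 read by characteristic. Of the 7 other genes 0 passed (limma; 0 at unadjusted p below 0.05), where 6.06% of all genes did, 1209. Of these 580 (2.91%) were higher and 629 (3.15%) lower in KO. Mcpt4 was nearest, at -0.84 ± 0.42 (SE, n = 2 and 2; adjusted p = 0.217, interval -1.76 to 0.09), then Tpsab1 at 0.59 ± 0.32 (adjusted p = 0.241, interval -0.10 to 1.29). Of the 9 genes, 3 were higher and 2 lower with no overlap between arrays, where 67.1% of all genes had no overlap, 32.1% higher and 35% lower.

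**Figure D3:**
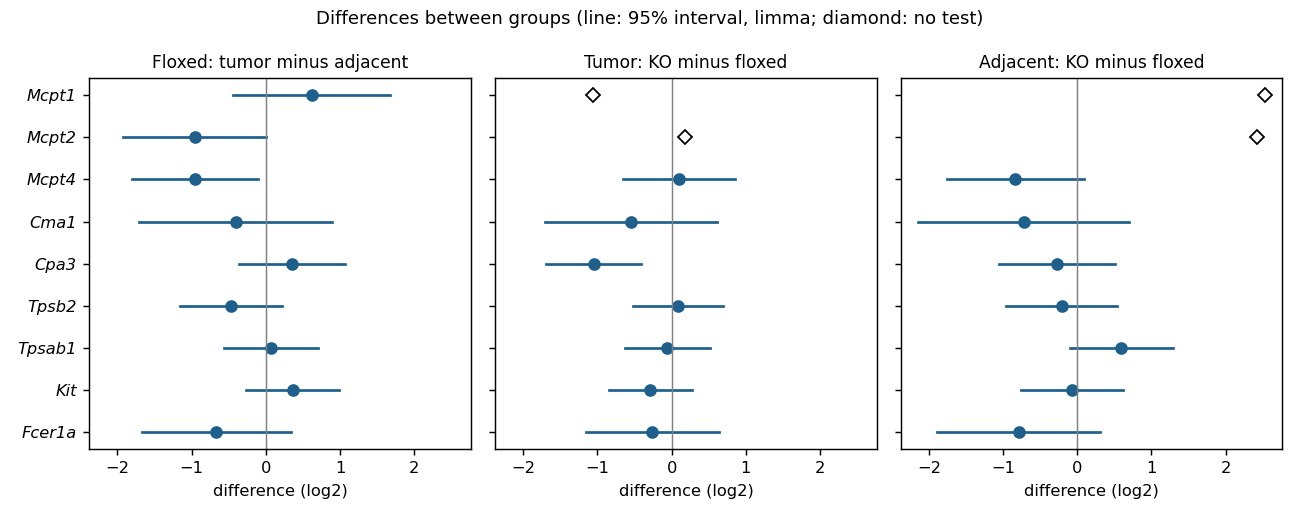
Differences in log2 expression (x axis) for the 9 genes (y axis) in floxed tumor minus adjacent, tumor KO minus floxed and adjacent KO minus floxed. Circles with lines are limma estimates with 95% intervals, and diamonds mark Mcpt1 and Mcpt2 where the KO arrays that chose them enter and no test was made. In the right panel the diamonds lie at 2.53 and 2.43 and the other 7 genes between -0.84 and 0.59.

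Other genes of mast cells were given by lists. Of the 10 other proteases and granule genes 8 were measured, and 0 passed in any of the 3 tested comparisons. Of all genes, 0.00502% passed in floxed tumor against adjacent, 1.08% in KO against floxed tumor and 6.06% in KO against floxed adjacent epithelium. These shares stand beside each list below, and at such shares a count of 0 is no result about so few genes. Srgn, the serglycin core that packs proteases into granules, was at 5.46 and 5.13 in KO adjacent arrays and 4.44 to 5.47 in KO tumor arrays. Ndst2, which sulfates the heparin of connective tissue mast cells, was 5.03 and 4.90 against 5.07 to 5.29, and Tpsg1, a membrane-bound tryptase, 5.07 and 4.26 against 4.53 to 4.59. None of these followed Mcpt1. The list's median was -0.21 in floxed tumor minus adjacent, -0.09 in KO minus floxed tumor and -0.27 in KO minus floxed adjacent epithelium, beside -0.0084, -0.0061 and -0.04 over all genes. In KO tumor minus adjacent it was 0.08, near the 0.04 of all genes.

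Of 18 receptor and signalling genes 16 were measured, and 1 passed, where 6.06% of all genes did in the same comparison. It was Mrgprb2, the receptor through which peptides and drugs trigger connective tissue mast cells. It was lower in KO adjacent than in floxed adjacent epithelium, at -1.57 ± 0.31 (SE, n = 2 and 2; limma adjusted p = 0.0265), with 1.96 and 3.53 as the group means. Both means lie under the medians of unnamed probe sets and both floxed arrays are of weak signal, so the size is uncertain. The call was lost in 8 of 12 alternatives, among them quantile normalization (-0.86, limma adjusted p = 0.172), both readings of the conflict labels (0.34 by title, 0.129 by characteristic, limma adjusted p) and the removal of any 1 of the 4 arrays compared. Lat2, an adaptor of IgE receptor signalling, lay at 5.30 and 5.07 in KO adjacent arrays and 5.20 to 5.32 in KO tumor arrays. Il3ra, a chain of the interleukin-3 receptor, was 4.75 and 5.11 against 4.88 to 5.25, and Lat, another adaptor, 4.71 and 4.66 against 4.49 to 5.13. In the same order of comparisons as above, the list's medians were -0.13, -0.21 and -0.23. The list mean was 3.85 to 3.95 in KO adjacent arrays and 3.95 to 3.98 in KO tumor arrays.

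Of 7 genes for lipid mediators and amines 6 were measured and 0 passed in the 3 comparisons (medians -0.02, -0.07 and 0.08). Ptgs2, the inducible cyclooxygenase, was 5.48 and 5.42 in KO adjacent arrays, above the 4.42 to 4.71 of KO tumor arrays and the 4.35 and 4.62 of the conflict arrays. Floxed adjacent array 2 held 5.39, so the KO adjacent arrays stood only just above it. Ltc4s, which makes leukotriene C4, and Alox5, which starts leukotriene synthesis, were 4.32 to 4.49 and 4.38 to 4.40 in KO adjacent arrays, against 4.50 to 4.68 and 4.49 to 4.59 in KO tumor arrays. All 9 transcription factors of the list were measured and 0 passed (medians -0.11, 0.13 and 0.36). Gata2, which mast cell development requires, was 4.95 and 5.24 in KO adjacent arrays against 5.15 to 5.22 in KO tumor arrays. Tal1 and Stat5b were 5.27 to 5.53 and 5.17 to 5.23 against 5.32 to 5.77 and 5.01 to 5.42.

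All 15 growth and recruitment factors were measured and 0 passed (medians -0.09, -0.01 and -0.21). Their mean was 4.06 to 4.10 in KO adjacent and 3.98 to 4.03 in KO tumor arrays. Il33, an epithelial and stromal cytokine that activates mast cells, was at 5.07 and 5.52 in KO adjacent arrays. It was 4.05 to 4.32 in KO tumor arrays, 4.19 and 4.36 in conflict arrays and 3.87 to 4.75 in floxed arrays. Both KO adjacent arrays thus exceeded all others, as in 2.98% of all genes. Il33 is named for its likeness to Mcpt1 and Mcpt2, which these same arrays set, so its level there is no separate support. KO minus floxed in adjacent epithelium was 0.87, given as a value only because it holds those KO adjacent arrays. Itgav, a subunit of integrins that activate TGF-beta, was 5.62 and 5.65 in KO adjacent against 5.43 to 5.86 in KO tumor arrays, and Il13, a type 2 cytokine, 4.85 and 4.74 against 4.88 to 4.98. Il18 was 7.03 in floxed tumor array 3 and 6.59 in conflict array 1 but 4.75 to 5.35 in all KO arrays. The other floxed arrays, all of weak signal, held 4.02 to 4.59, and conflict array 2 held 4.77.

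A search for like profiles left out the 10 members, predicted genes, RIKEN clones, microRNAs, small nucleolar RNAs and smell or vomeronasal receptors. Genes whose profile most resembled the mean of Mcpt1 and Mcpt2 were found by Pearson correlation over the remaining genes, as a description set mainly by the 2 KO adjacent arrays. Over 12 arrays these were Stmn1 (r = 0.92), which destabilizes microtubules in dividing cells, the serine protease Habp2 (0.91), Il33 (0.90), Il1rn (0.89), which blocks the interleukin-1 receptor, Rac3 (0.89), Igfbp5 (0.88), Wfdc18 (0.87) and Acaca (0.87). Stmn1 was 7.66 and 7.80 in KO adjacent arrays and at most 6.33 elsewhere. Wfdc18, a whey acidic protein relative, was 9.61 and 9.88 there and at most 5.86 elsewhere. Over the 8 arrays not of weak signal they were Notum (0.99), an inhibitor of Wnt, Tnc (0.98), Gaa (0.98), Wfdc18 (0.98), Kif26b (0.97), Ifitm2 (0.97), Itga2 (0.97) and Ypel2 (0.96). Granule proteases among the members could not appear, as they were left out. Wfdc18 appears in both sets.

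Markers of other cell types were read beside these values. The 4 general leukocyte markers, among them Ptprc and Coro1a, averaged 4.35 to 4.44 in KO adjacent arrays, under the 4.60 to 4.73 of KO tumor arrays. They were highest, at 5.87, in conflict array 2, where Mcpt1 was 2.91. T cell and intraepithelial lymphocyte markers such as Cd7 and Cd8a averaged 4.19 to 4.38 in KO adjacent and 4.43 to 4.80 in KO tumor arrays. Neutrophil markers such as S100a9 averaged 3.84 to 3.92 and 3.73 to 3.84, basophil and eosinophil markers 3.60 to 3.71 and 3.76 to 3.86, and macrophage markers 4.50 to 4.51 and 4.47 to 4.64. Fibroblast markers such as Col6a1 and Col1a1 averaged 5.32 to 5.38 in KO adjacent and 4.96 to 5.13 in KO tumor arrays, and 5 of 9 were higher in KO adjacent with no overlap, 2 lower, where 14.1% and 17.9% of all genes were. Conflict arrays held 5.05 and 5.30 at low Mcpt1. Higher in KO tumor without overlap were 2 of 4 general leukocyte, 4 of 10 lymphocyte and 3 of 8 basophil and eosinophil markers. Lower there without overlap were 1, 0 and 0. Smooth muscle and interstitial cell markers averaged 4.55 to 4.59 against 4.40 to 4.57, and epithelial markers 6.92 to 7.05 against 6.50 to 7.34. Of all these lists, 3 genes passed. Between tumors, where 1.08% of all genes passed, S100a8, 1 of 12 neutrophil markers, was lower in KO than floxed (-1.39, limma adjusted p = 0.0438). Col3a1, 1 of 9 fibroblast markers, was higher there (1.21, limma adjusted p = 0.0478). In adjacent epithelium, where 6.06% of all genes passed, only Dcn did, 1 of 9 fibroblast markers, higher in KO than floxed (1.53, limma adjusted p = 0.0315). The floxed arrays behind these calls were of weak signal, except floxed tumor array 3. With the conflict labels read by title no call held (limma adjusted p = 0.187 for S100a8 and Col3a1, 0.334 for Dcn), and over their alternatives 9, 11 and 7 of 16, 16 and 13 lost it. Their part in the step of Mcpt1 and Mcpt2 was not tested.

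**Figure D4:**
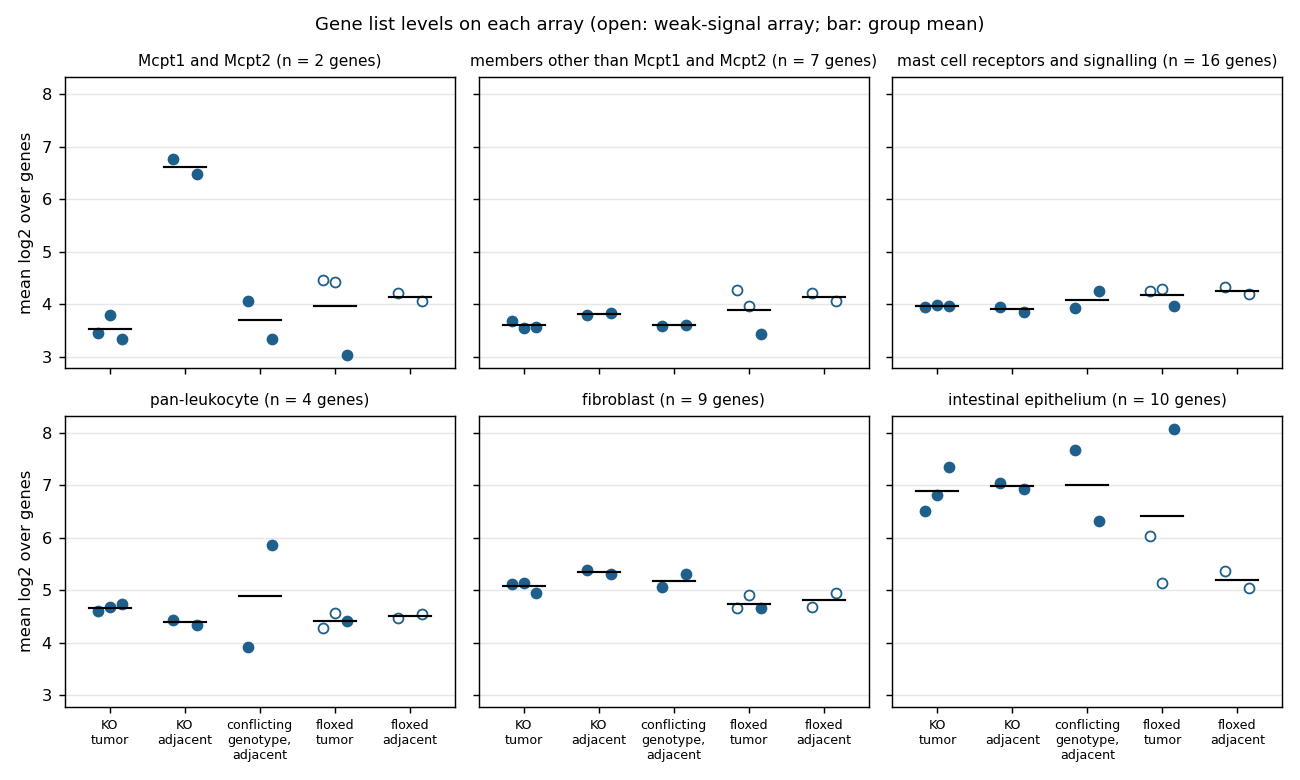
Mean log2 expression (y axis) of 6 gene lists in each of 12 arrays by group (x axis). Points are arrays, open where the signal is weak, and bars are group means. Mcpt1 and Mcpt2 together sit at 6.48 and 6.76 in the KO adjacent arrays and at most 4.46 elsewhere, while the 7 other measured members sit at 3.43 to 4.27 in all arrays.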

How the data were processed

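Epithelium was taken by laser microdissection and its RNA processed with a GeneChip WT Pico kit, per the labels' protocols, for 12 arrays. The deposited table holds log2 expression values, 1 column per array, made by the authors with Partek and RMA (robust multi-array averaging), per the submitters' processing notes. Column medians ran from 4.25 to 4.44. Values are single-channel levels, not centred by gene; versions, filters and any later scaling are not given in the sources used here. Of 35556 probe sets, 21789 had 1 gene symbol, 1621 several and 12146 none in the platform's annotation. The highest-mean probe set per gene left 19938 genes.

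The 10 arrays without conflicting labels were fitted, as 4 groups, by limma (version 3.58.1, R 4.3.3; lmFit and eBayes, two-sided, Benjamini-Hochberg over all genes), with calls at adjusted p below 0.05. The steps were tested on simulated data. The members and lists were chosen with earlier results of these data known. Named genes were all members, called genes of the other mast cell lists or the 3 of highest mean per list. The 8 genes most alike in profile to Mcpt1 and Mcpt2, members left out, were also named. Exceptions are marked. Same-numbered KO and floxed tumor arrays deviated together (r = 0.105 to 0.347 across genes, 3 pairs, by title number), so the block is given there, although KO tumor array 1 correlated more with floxed tumor array 2 (0.246) than with its own number. No label says what a number shares. Precision is limited by how many arrays there are.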

Additional observations from a re-analysis of the deposited data

How the results depend on the processing

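Depth here means signal: 4 of 5 floxed arrays, both adjacent ones included, are weak, so leaving out weak-signal arrays could not be run for adjacent epithelium or for tissues in floxed mice. Each measured member has 1 probe set, so no other probe set could be tried. For the 23 tested member values and their alternatives, 291 of 317 values kept direction and side of the threshold, 24 turned in sign and 2, both of Cpa3, newly passed. A fit that left 1 array in a group takes that array to vary like the others. The untested KO tumor minus adjacent values that chose Mcpt1 and Mcpt2 ran from -3.15 to -1.91 and from -3.31 to -2.08, a sign the choice itself sets. The cause of the changes below was not tested.

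Counts of all genes past limma's test depended on nearly every choice. In floxed tumor against adjacent, 1 passed, 19 after quantile normalizing again, 9 after median and MAD scaling, and 0 with all probe sets, trend and robust variance, array weights, only the arrays compared, the replicate block or either reading of the conflict labels (751 to 2727 at an unadjusted p under 0.05), and 0 to 343 without 1 array, 343 without floxed tumor array 2, 8 without floxed tumor array 3, and 0 without floxed tumor array 1 or floxed adjacent array 2 (3343 and 2433 at an unadjusted p under 0.05). For KO against floxed tumor, 215 became 1181 at an adjusted p under 0.1, 8 (6 higher) after quantile normalizing again, 14 (8 higher) after scaling, 98 (91 higher) without the dimmest 30% of genes, 336 with all probe sets, 61 with trend and robust variance, 2907 with array weights, 8 with only the arrays compared, 782 with the replicate block, 132 with the labels read by characteristic, 0 by title (3813 at unadjusted p below 0.05), 3866 without weak-signal arrays, and 10 to 5793 on leaving an array out, namely 5793 for floxed tumor array 3, 77 for array 2 and 20 for array 1, and 10, 10 and 14 for KO tumor arrays 1 to 3. In adjacent epithelium, 1209 became 3346 at an adjusted p under 0.1, 210 (125 higher) and 162 (72 higher) under the scalings, 460 (397 higher) without dim genes, 4034 with weights, 3435 with only the arrays compared, 2450 with the block, where same-numbered arrays share only a number (2 pairs, r = 0.01 each), 1 and 48 by title and characteristic, and 1 to 427 without 1 array: 427 and 215 without floxed adjacent arrays 1 and 2, 10 and 1 without KO adjacent arrays 1 and 2. In KO tumor against adjacent, 4 became 7 at an adjusted p under 0.1, 1 after quantile normalizing again, 0 after scaling (254 at an unadjusted p under 0.05), 8 with all probe sets, 1042 with weights, 368 with only the KO arrays and also without weak-signal arrays, 0 by characteristic (243 at an unadjusted p under 0.05), and 0 without any 1 array (151 to 383 at an unadjusted p under 0.05). The block changed no call of a tested member.

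Member values that turned in sign follow. In floxed tumor against adjacent, Cma1 (-0.41) was 0.17 with array weights and -1.17 to 0.10 without 1 array, Tpsab1 (0.07) -0.32 to 0.45 and Fcer1a (-0.67) -1.42 to 0.077. In KO against floxed tumor, Fcer1a (-0.26) was 0.24 and 0.0264 under the scalings and 0.51 without weak-signal arrays, where Cma1 (-0.55) was 0.47 and Tpsab1 0.24. Mcpt4 was -0.0483 with weights. Without 1 array Mcpt4 ran from -0.0867 to 0.29, Cma1 from -1.06 to 0.21 and Tpsab1 from -0.21 to 0.0462. In adjacent epithelium, Cpa3 (-0.27) was 0.35 and 0.25 under the scalings and 0.0738 by title, where Kit was 0.0182. Tpsb2 was 0.0812 by characteristic. Without 1 array Tpsb2 ran from -0.66 to 0.23 and Kit from -0.39 to 0.25. The untested Mcpt2 difference between genotypes in tumor (0.19) ran from -0.27 to 1.09 over all alternatives.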
